A study of Saccharomyces cerevisiae with 64 samples.

Results

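Binding of Spp1 and Bre2 was examined on the 3 shortest nuclear chromosomes of budding yeast, chromosomes I, III and VI, during meiosis. The peaks described are all those in the deposited lists that lay on these chromosomes with a midpoint more than 20 kb from either end. They numbered 3685 of the 53443 nuclear peaks, with 1407 on chromosome I, 974 on chromosome III and 1304 on chromosome VI, and were set against 48736 peaks chosen in the same way on the 13 longer nuclear chromosomes. Another 332 peaks on the short chromosomes lay within the end margin and were left out, and 51 peaks lay 20 to 21 kb from an end, just inside the limit, against 31 peaks 19 to 20 kb from an end, just outside it. The short interiors held 6.08% of the interior length, 347 coding genes (6.02% of the interior coding genes) and 7.03% of the interior peaks.

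Spp1 and Bre2 are subunits of Set1C, the complex that methylates histone H3 on lysine 4. Spp1 reads that mark through its PHD finger and also carries a CXXC domain, and in meiosis it joins the axis protein Mer2, which brings marked chromatin at gene starts to the chromosome axis, where Spo11 makes the double-strand breaks that start recombination. Short budding yeast chromosomes are known to receive more meiotic breaks per kilobase than long ones, and each still needs a crossover to segregate.

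The study mapped tagged proteins by chromatin immunoprecipitation and sequencing (ChIP-seq) in SK1 diploids (Mata/alpha, leu2/LEU2, HIS4/his4, ura3/ura3, with trp1/trp1 or, in the histone strains, trp1-1/trp1-1). Cells passed from pre-sporulation medium (SPS) to potassium acetate sporulation medium (SPM), and hours count from that transfer. In the series that the labels call competition, Spp1-GFP was precipitated with anti-GFP from a heterozygote that joins SPP1-13xmyc-KanMX4 to a NatMX4-pCUP1-1-yGFP-SPP1 copy driven by the CUP1 promoter (4.5 to 6.5 h, 8 libraries), and Spp1-myc with anti-myc from cells whose label gives a homozygous myc tag (4.5 to 6.5 h, 10 libraries). Sampled once at each stage (SPS, then 0, 2, 4 and 6 h of SPM), 4 homozygous strains carried a 13xmyc tag on Spp1 without its PHD finger (spp1PHD{delta}), on Spp1 without its CXXC domain (spp1CXXC{delta}), on Bre2 and on full-length Spp1. With 2 libraries each at 0, 2, 4 and 6 h, 3 strains carried homozygous SPP1-3xHA (precipitated with anti-HA; their descriptions name Spp1-myc, and the genotype and antibody were followed here), lacked the chromosomal H3 gene copies (hht1{delta}, hht2{delta}; 1 hht2 allele is written as hht1{delta}::HphMX in the labels), and lived on a centromeric plasmid with HHT2K4R (H3K4R), HHT2R2A (H3R2A) or HHT2 (H3 wild type), together with HHF2 and TRP1. All 3 histone strains are also lys2/lys2 and ho::LYS2/ho::LYS2. The labels do not say that libraries of a group came from separate cultures, and p-values therefore speak only of the spread among the libraries, which may be technical.

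A peak list had 586 to 2048 interior nuclear peaks in the 44 libraries outside the competition series (median 1090), and 26 to 664 in its 18 libraries (median 72). No list gives read counts, which leaves the depth unknown, and intervals on shares and ratios cover counting error of peaks only. A share of each list, 1.01% to 10.1% in the 44 libraries and 4.96% to 60.4% in the competition series, lay on a sequence named chrXVII that is not among the nuclear chromosomes of the reference. Those peaks were left out of all densities.

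Peak density on the short chromosomes was close to that of the longer ones in most strains and far above it in the competition series. Spp1-GFP had 3.17 to 10.8 peaks per 100 kb on the short chromosomes (median 4.97), against 0.345 to 5.49 on the longer ones (median 1.5). Competition Spp1-myc had 0.865 to 4.76 peaks per 100 kb on the short chromosomes (median 3.53), against 0.131 to 0.681 on the longer ones (median 0.233). In all 18 of these libraries the short chromosomes were the denser set. The log2 ratio of short to longer density averaged 1.89 ± 0.81 (SD, n = 8) in Spp1-GFP, a 3.71-fold excess, and an exact two-sided sign-flip permutation test over libraries gave p = 0.00781, the smallest 8 libraries allow (adjusted p = 0.0391 over 20 strain tests). In competition Spp1-myc it averaged 3.43 ± 0.84 (SD, n = 10), a 10.8-fold excess, with p = 0.00195 by the same exact permutation test, again the smallest possible (adjusted p = 0.0195).

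The histone strains showed no such excess. H3K4R libraries had 7.35 to 17.6 peaks per 100 kb on the short chromosomes (median 10.2), against 5.13 to 17.3 on the longer ones (median 10.7). H3R2A libraries had 5.33 to 16.3 on the short chromosomes (median 7.56), against 5.40 to 13.7 on the longer ones (median 7.55). H3 wild-type libraries had 7.20 to 18.4 on the short chromosomes (median 10.8), against 5.00 to 17.6 on the longer ones (median 11.6). The 2 ranges overlapped in each strain, and the mean log2 ratios were 0.09 ± 0.22, 0.05 ± 0.24 and 0.05 ± 0.29 (SD, n = 8 each), with adjusted p of 0.714, 0.771 and 0.840 by the exact permutation test.

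**Figure D1:**
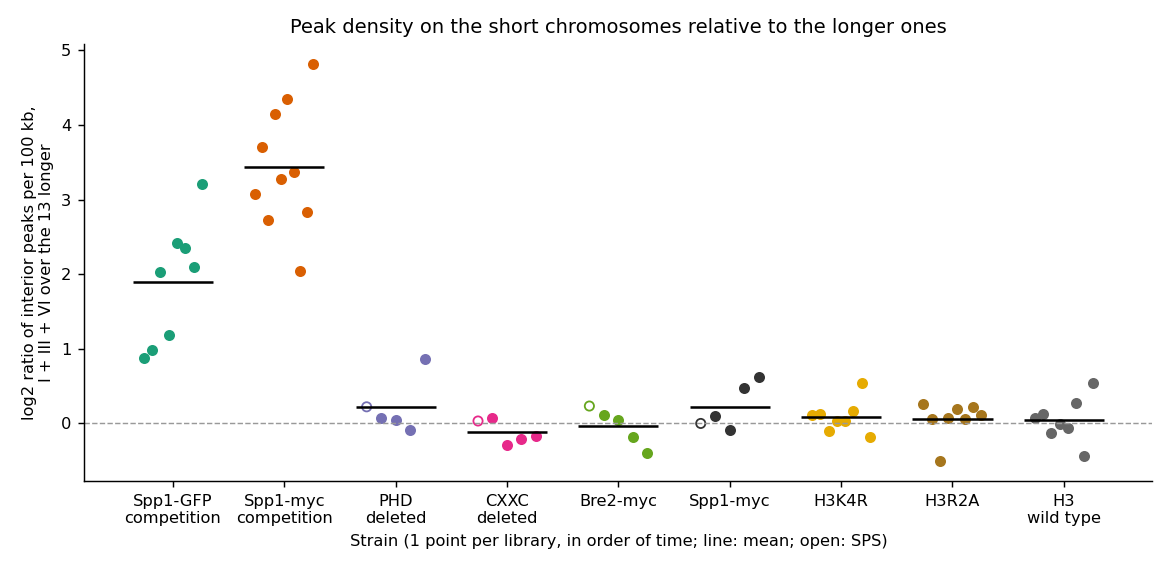
The log2 ratio of interior peaks per 100 kb on chromosomes I, III and VI over the 13 longer chromosomes, 1 point per library, by strain; the line is the strain's mean, open points are SPS and 0 is equal density. All 18 competition libraries lie above 0, with means of 1.89 and 3.43, while the 3 histone strains spread around 0 with means of 0.09, 0.05 and 0.05.

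Counting genes in place of kilobases gave the same picture. The short interiors held 50.0 coding genes per 100 kb and the longer ones 50.5, so that peaks per gene and peaks per 100 kb stand in nearly the same ratio. Spp1-GFP had a median of 9.94 peaks per 100 genes on the short chromosomes, against 2.97 on the longer ones, and H3 wild type 21.6 against 22.9. A gene is called occupied here if a peak was centred within its coding sequence or up to 500 bp upstream. Spp1-GFP occupied 6.05% to 19.6% of the short-chromosome genes (median 9.51%), against 0.794% to 10.5% of the genes on the longer ones (median 3.10%). The difference was 6.67 ± 1.97 percentage points (SD, n = 8; exact permutation test, adjusted p = 0.0391). Competition Spp1-myc occupied 1.44% to 9.51% of the short-chromosome genes (median 6.48%), against 0.259% to 1.24% on the longer ones (median 0.388%), a difference of 5.69 ± 2.38 points (SD, n = 10; exact permutation test, adjusted p = 0.0195). In H3K4R, H3R2A and H3 wild type the mean differences were 1.10, 0.77 and 0.18 points, with adjusted p of 0.500, 0.714 and 0.946 by the exact permutation test (n = 8 each). Scores and median widths of peaks did not pass a test between short and longer chromosomes in any of the 5 replicated strains, with adjusted p of 0.625 to 1.

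The 3 chromosomes did not behave alike. In the competition series the excess sat on chromosome I, which was the densest of the 16 chromosomes in 18 of 18 libraries. Relative to the longer chromosomes, the density of chromosome I had a median of 10.3 in Spp1-GFP (3.75 to 30.8) and of 34.4 in competition Spp1-myc (11.9 to 106). Chromosome VI had a mean relative density of 2.48 ± 0.99 in Spp1-GFP (SD, n = 8), above 1 in 8 of 8 libraries, and a median of 0 in competition Spp1-myc, where it averaged 1.23 ± 1.73 (n = 10). Chromosome III averaged 0.95 ± 0.72 in Spp1-GFP and 0.98 ± 1.18 in competition Spp1-myc. Among the longer chromosomes XII was highest by its mean, with 2.88 ± 2.15 in Spp1-GFP and 5.41 ± 3.64 in competition Spp1-myc.

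Without chromosome I the competition results no longer passed. The log2 ratio was 0.70 in Spp1-GFP (adjusted p = 0.0521, n = 8) and 0.13 in competition Spp1-myc (adjusted p = 0.938, n = 10), and the gene differences were 1.46 points (adjusted p = 0.104) and 0.42 points (adjusted p = 0.769), all by the exact permutation test. Leaving out any 1 Spp1-GFP library also ended both Spp1-GFP calls at an adjusted p of 0.0781, since 7 libraries allow fewer arrangements, with log2 ratios of 1.70 to 2.04 and gene differences of 6.32 to 7.11 points.

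In the 44 other libraries chromosomes I and VI were on the dense side and chromosome III on the sparse side. Their relative densities averaged 1.28 ± 0.40 for I, 1.26 ± 0.33 for VI and 0.74 ± 0.27 for III (SD, n = 44 libraries of 7 strains). Chromosome I was the densest of the 16 in 15 of these libraries and chromosome VI in 13, while chromosome III was the sparsest in 21. Full-length Spp1-myc differed on III, with a mean of 1.04 ± 0.21 (SD, n = 5) and values above 1 in 3 of 5 libraries. The means of III in the other strains outside the competition series were 0.61 to 0.82. Chromosome III was sparse in those strains although its interior has 54.7 coding genes per 100 kb, against 44.6 on I and 48.8 on VI. The histone strain results turned on which chromosome was set aside. The short minus longer difference in occupied genes was -0.66 points in H3K4R, -0.62 in H3R2A and -0.58 in H3 wild type without chromosome I, and -1.40, -1.55 and -2.72 points without VI, in the same order. Without chromosome III, the sparse one, it was 6.45, 5.42 and 4.69 points, and the log2 density ratio in H3K4R was 0.38, against -0.11 without I and -0.021 without VI. These values are given as a description, since leaving out the sparsest chromosome raises the rest by construction, and the strain medians of chromosome III were 6.52 peaks per 100 kb in H3K4R, 4.16 in H3R2A and 6.70 in H3 wild type.

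**Figure D2:**
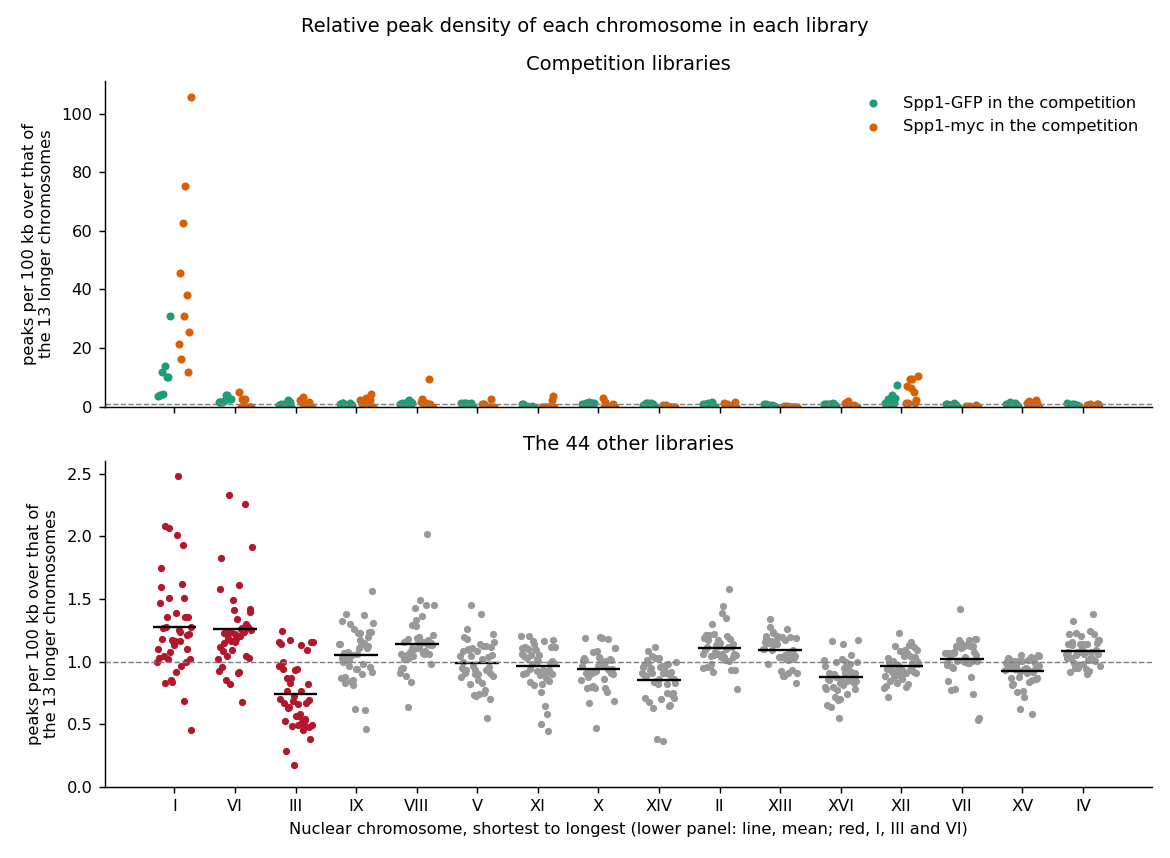
Peaks per 100 kb of each nuclear chromosome relative to the 13 longer ones together, chromosomes ordered by length, 1 point per library, with the 18 competition libraries above and the 44 others below (line in the lower panel, mean of the libraries; the vertical scales differ). Chromosome I alone reaches 106 in the competition series, while in the other libraries I, VI and III average 1.28, 1.26 and 0.74.

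Chromosome I held a large part of the short competition lists. It had 14 to 42 interior peaks in the Spp1-GFP libraries (median 23.5), where the 13 longer chromosomes had 37 to 589 in all (median 161). It had 5 to 33 in competition Spp1-myc (median 20.5), where the longer chromosomes had 14 to 73 (median 25). Its share of the interior peaks was therefore 5.89% to 33.9% in Spp1-GFP and 16.7% to 65.0% in competition Spp1-myc, against 0.754% to 3.99% in the 44 other libraries. The share of each list on chrXVII was 4.96% to 51.9% in Spp1-GFP and 33.7% to 60.4% in competition Spp1-myc, against 1.01% to 10.1% in the 44 other libraries. Its part in the result was not tested.

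Most short-chromosome peaks of the competition series lay on chromosome I. Their median width there was 151 bp in both tags, as was the median on the longer chromosomes in competition Spp1-myc, while the longer chromosomes had a median of 201 bp in Spp1-GFP. The median score, a fraction that the peak caller gave, was 0.961 on chromosome I in Spp1-GFP, against 1.000 on the longer chromosomes, and 0.867 in competition Spp1-myc, against 0.886 on the longer chromosomes. Ranked within each list, the scores of competition Spp1-myc had the other order, with a median percentile of 53.9 on the short chromosomes (27.5 to 62.9), against 42.1 on the longer ones (22.6 to 64.8), higher in 7 of 10 libraries without passing the test. The chromosome I peaks were also set beside those of the other strains. Of the chromosome I peaks, 82.7% in Spp1-GFP and 59.7% in competition Spp1-myc shared at least 1 bp with a peak of any of the 44 other libraries, against 95.6% and 78.8% on the longer chromosomes. Between replicates, competition Spp1-myc shared 27 of 72 chromosome I peaks and 34 of 108 peaks on the longer chromosomes, counted in the shorter list of each pair. Spp1-GFP shared 36 of 57 chromosome I peaks and 484 of 679 on the longer chromosomes. In H3K4R, H3R2A and H3 wild type, chromosome I pairs shared 81 of 94, 55 of 67 and 60 of 77 peaks.

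These peaks spread over most of the genes of chromosome I. In competition Spp1-myc, 50 of its 84 interior coding genes (59.5%) had a peak in at least 1 library, against 3.21% of the genes on the longer chromosomes, and 32 of them had one in 3 or more libraries, against 22 genes on all 13 longer chromosomes. Spp1-GFP also reached 50 of the 84, against 13.6% of the genes on the longer chromosomes. On chromosome I, 12 genes had a peak in the competition series and in none of the 44 other libraries. The matching count was not made on the longer chromosomes, so it cannot be said whether this is particular to chromosome I. The 44 other libraries together reached 72.6% of the genes of chromosome I and 68.7% of those on the longer chromosomes. The genes met most often were NTG1, a DNA glycosylase of base excision repair, and SYN8, an endosomal SNARE, each in 9 of 10 competition Spp1-myc libraries. NTG1 and SYN8 are neighbours on the minus strand, and a single peak near the end of SYN8 can count for both. DEP1, a subunit of the Rpd3L histone deacetylase, and TFC3, the largest subunit of the transcription factor TFIIIC, each had a peak in 8 of 10. TFC3 was found in 6 of 8 Spp1-GFP libraries too and in only 1 of the other 44, with peak midpoints a median of 3174 bp from the start of its coding region, towards the end of the gene.

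Within genes of 1000 bp or more, Spp1-GFP peaks on the short chromosomes held a larger share at the end of the gene than those on the longer ones. The last 20% of the coding region held 15.4% to 29.3% of the coding peaks on the short chromosomes (median 21.4%), against 0% to 5.13% on the longer ones (median 2.94%), and the short value was higher in 8 of 8 libraries. In competition Spp1-myc both shares were high, at 0% to 47.1% on the short chromosomes (median 28.9%) and 16.1% to 63.6% on the longer ones (median 33.3%), with the short value higher in 3 of 10 libraries. This measure was chosen after the data were seen and was not tested.

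The 2 tags were also compared at 4.5, 5 and 5.5 h, where both had 2 libraries. The short to longer density ratio was 1.82, 1.97, 4.04, 2.24, 5.28 and 5.03 in the Spp1-GFP libraries, against 8.37, 13.0, 6.56, 17.8, 9.61 and 20.4 in the Spp1-myc libraries, in order of time. The 2 sets did not overlap. The mean log2 ratio was lower in Spp1-GFP by 1.91, with p = 0.00926 by the exact permutation test within times, the smallest that 6 against 6 allow in that scheme, and the adjusted p over 16 contrast tests was 0.0741. The gene difference was 6.64 points in Spp1-GFP and 6.89 in Spp1-myc (exact permutation test, adjusted p = 0.948). Per gene, 0 of 110 short-chromosome genes passed Fisher's exact test (Benjamini-Hochberg adjusted over the genome), as did 0% of the 870 genes tested in all, and 0 of 110 had an unadjusted p under 0.05, against 3.33% of all genes tested. The median difference in peak frequency was 16.7 points over the 110 genes and 33.3 points over all 870. RPN11, a deubiquitinating subunit of the proteasome, and YPI1, a regulator of protein phosphatase 1, stand side by side on chromosome VI and had a peak in 4 of 6 Spp1-GFP libraries and 0 of 6 Spp1-myc libraries. FLO1, a cell wall flocculin of chromosome I, had one in 0 of 6 and 3 of 6.

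Full-length Spp1-myc, followed through meiosis with 1 library per stage, had a density ratio of 0.99 in SPS, 1.06 at 0 h, 0.93 at 2 h, 1.38 at 4 h and 1.53 at 6 h. The exact 95% intervals were 0.89 to 1.27 at 0 h, 1.11 to 1.69 at 4 h and 1.23 to 1.88 at 6 h, so that the short chromosomes were the denser ones at the last 2 times beyond counting error. At 6 h the short chromosomes had 14.3 peaks per 100 kb and the longer ones 9.31. Of the 99 short-chromosome peaks at 6 h, 28 lay on I, 32 on III and 39 on VI, whereas at 0 h 37 lay on I, 57 on III and 38 on VI. There was no replicate of these libraries.

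The Spp1 mutants and Bre2 were followed in the same way. Spp1 without the PHD finger stayed between 0.92 and 1.15 until 4 h and had a ratio of 1.80 at 6 h (1.4 to 2.28), with 11.1 peaks per 100 kb on the short chromosomes, against 6.17 on the longer ones. Those 77 peaks were 24 on I, 20 on III and 33 on VI. Spp1 without the CXXC domain had 1.01, 1.05, 0.81, 0.86 and 0.88 from SPS to 6 h, with every interval spanning 1. Bre2 had 1.16, 1.07, 1.02, 0.87 and 0.75 in the same order, and its interval at 6 h was 0.51 to 1.06. H3 wild type at 6 h, the matched time with 2 libraries, gave 0.73 (0.56 to 0.95) and 1.44 (1.06 to 1.93), and H3K4R at 6 h gave 1.43 (1.05 to 1.91) and 0.87 (0.68 to 1.11). In both of these strains the replicates lay on opposite sides of 1, with a gap beyond the counting intervals of H3 wild type.

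**Figure D3:**
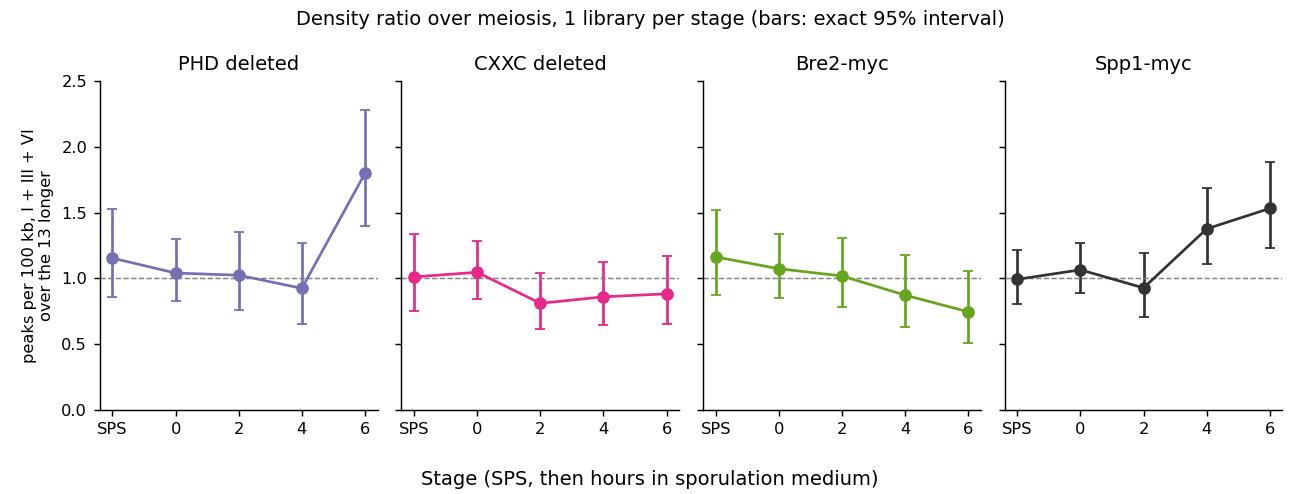
Ratio of interior peaks per 100 kb, chromosomes I, III and VI over the 13 longer ones, in SPS and at 0, 2, 4 and 6 h of sporulation for the 4 strains with 1 library per stage; bars are exact 95% intervals of counting error. Only full-length Spp1-myc at 4 and 6 h (1.38 and 1.53) and Spp1 without the PHD finger at 6 h (1.80) have intervals above 1.

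Full-length Spp1-myc was also followed gene by gene. Of 347 genes, 16 (4.61%, Wilson 95% interval 2.86% to 7.36%) had a peak at 4 and 6 h and none at 0 h, against 2.09% (1.74% to 2.5%) of the genes on the longer chromosomes. By contrast, 25 (7.20%) had a peak at all 4 times, against 6.37%, and 59 (17.0%) at 0 h only, against 16.9%. The genes gained late with the highest scores were MTW1, a kinetochore protein, and SAW1, which recruits the Rad1-Rad10 nuclease in single-strand annealing, both on chromosome I, followed by POF1 and BUD3, a bud-site selection protein, on III, CAF16 on VI and AIM2 on I. PES4, an RNA-binding protein of sporulation, and RAD18, a ubiquitin ligase of DNA damage tolerance, were also among the 16. In Spp1 without the PHD finger, 66.2% (55.1% to 75.8%) of the short-chromosome peaks at 6 h had no counterpart at 0 h, against 43.5% (39.8% to 47.3%) on the longer chromosomes. That share was 36.0% against 44.7% in Spp1 without the CXXC domain, 30.3% against 44.4% with Bre2, and 62.6% (52.8% to 71.5%) against 54.4% (51.3% to 57.4%) in full-length Spp1-myc. Peaks within genes of 1000 bp or more were also placed along the gene. In Spp1 without the PHD finger at 6 h, the last 20% held 39.6% of 48 such short-chromosome peaks (27.0% to 53.7%). On the longer chromosomes it held 20.1% (16.3% to 24.6%). In full-length Spp1-myc at 6 h those shares were 37.7% and 38.4%.

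Some genes had a peak in most libraries. Of the 347 genes, 38 (11.0%) had a peak in 31 or more of the 62 libraries, against 7.89% of the genes on the longer chromosomes, and 85 (24.5%) had one in none, against 30.8%. Chromosome I supplied 16 of the 38, chromosome VI 15 and chromosome III 7. The genes met most often on chromosome I were ACS1, which makes acetyl-CoA from acetate (57 libraries), YAT1, a carnitine acetyltransferase (57), SSA1, a cytosolic Hsp70 chaperone (56), and CYC3, which attaches haem to cytochrome c (48). On chromosome III they were ADY2, an acetate transporter (49), CIT2, the peroxisomal citrate synthase (48), PDI1, protein disulfide isomerase (44), and AGP1, an amino acid permease (43). On chromosome VI they were QCR6, a subunit of respiratory complex III (51), HAC1, the transcription factor of the unfolded protein response (47), YPT1, a Rab GTPase, EPL1, a subunit of the NuA4 acetyltransferase, and RPN11 (44 each).

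**Figure D4:**
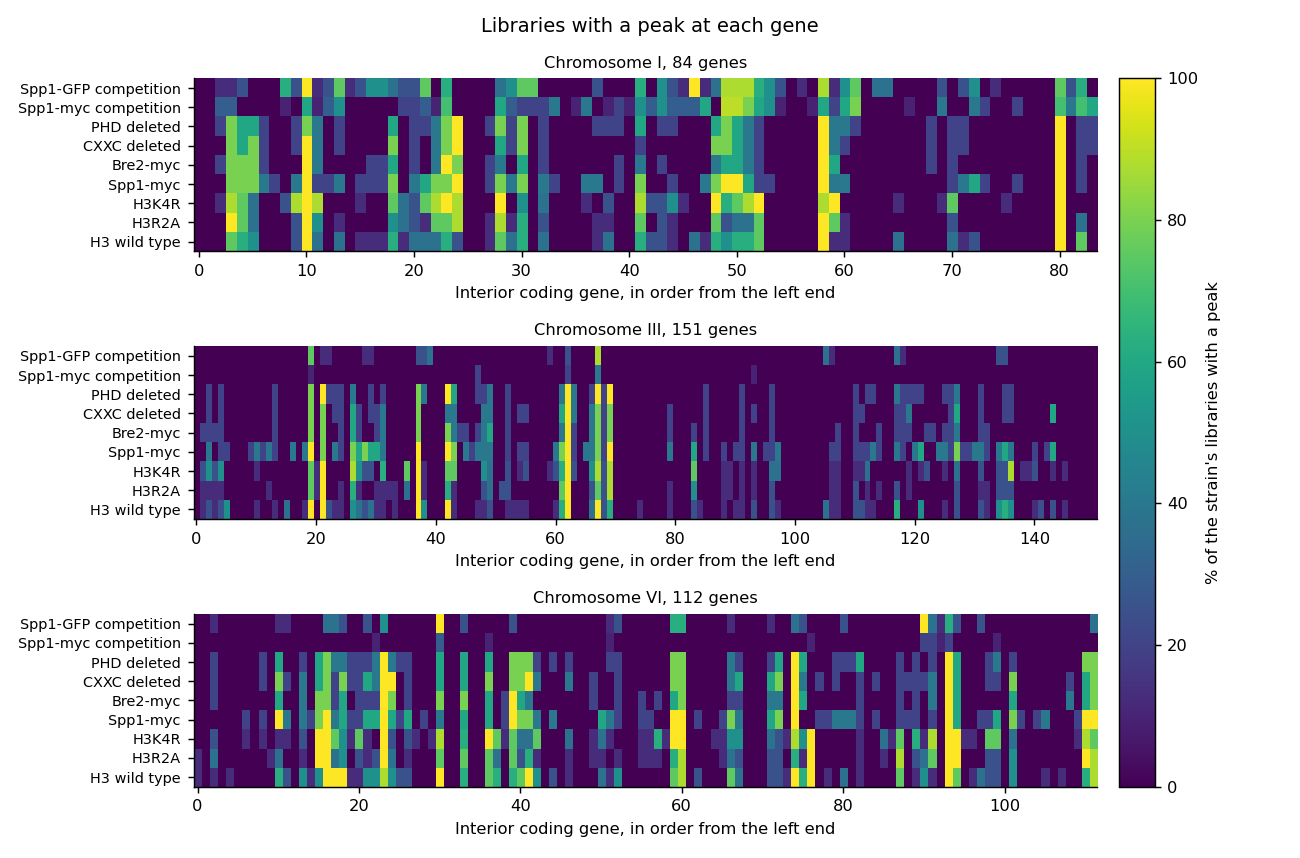
Percent of each strain's libraries with a peak at each interior coding gene of chromosomes I (84 genes), III (151) and VI (112), genes in order along the chromosome. Bright columns mark ACS1 and YAT1 on I through all strains, and CIT2 on III and QCR6 on VI outside the competition series. In competition Spp1-myc, CIT2 and QCR6 each had a peak in 2 of 10 libraries. In the competition rows chromosome I is filled across many genes, while III and VI are nearly empty in the Spp1-myc row.

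Several of these genes also had wide peaks. ACS1 (sacCer3, chromosome I, 42881 to 45022, minus strand) carried a peak of 43801 to 45051 in Spp1-myc at 6 h, over the start of the coding region. Peaks of 1000 bp or more lay at CIT2 in 39 libraries, at ACS1 in 38, at YAT1 in 31, at AGP1 in 24 and at PGK1, phosphoglycerate kinase, in 23. Such peaks made up 11.6% of the chromosome III peaks in H3K4R, 19.8% in H3R2A and 10.9% in H3 wild type, against 3.36%, 5.54% and 3.11% on the longer chromosomes. On chromosome VI the shares were 1.69%, 3.52% and 0.784%. The mean width was 394 ± 35 bp on the short chromosomes and 335 ± 21 bp on the longer ones in H3K4R, 447 ± 95 and 372 ± 41 bp in H3R2A, and 369 ± 29 and 319 ± 32 bp in H3 wild type (SD, n = 8 libraries each). Pooled over peaks, mean widths in the same order of strains were 423, 457 and 413 bp on I and 430, 495 and 426 bp on III. They were 340, 340 and 303 bp on VI, against 339, 367 and 324 bp on the longer chromosomes. With the mean in place of the median, which did not pass, the log2 width ratio passed in these strains. It was 0.23, 0.25 and 0.21, with adjusted p of 0.0260, 0.0446 and 0.0260 (exact permutation test, n = 8 each). H3K4R also passed for the bases under peaks, with a log2 ratio of 0.31 (exact permutation test, n = 8, adjusted p = 0.0313).

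The gene lists used here cover carbon metabolism, chaperones, translation, recombination hotspots and sporulation, and a gene of 347 on these chromosomes had a peak in a median of 4 libraries. Carbon and acetate metabolism stood highest. Of its 9 interior members, 8 had a peak in 31 or more libraries (median 42), and 5 to 9 of the 9 were occupied in each library after 0 h outside the competition series. HXK1, the tenth on the list, lay within the end margin. Chaperones and stress genes followed, with 5 of 8 members in 31 or more (median 34), among them SSA1, HAC1, PDI1, the mitochondrial MDJ1 and HSP12. Amino acid synthesis and uptake had 4 of 10, the cytoskeleton and septins 1 of 6, and the Set1C member SWD1 had a peak in 3 libraries. In the competition series the carbon list had 1 to 5 members occupied in Spp1-GFP (median 3) and 0 to 5 in Spp1-myc (median 1).

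Translation genes had most peaks at 0 h in the myc-tagged strains. The list holds 12 genes, among them the ribosomal protein genes RPL29, RPL2A, RPL22B and RPS14A, the elongation factor gene EFB1 and the initiation factor gene FUN12. At 0 h, 9 of the 12 were occupied in Spp1 without the PHD finger, 7 in Spp1 without the CXXC domain, 11 with Bre2 and 11 with full-length Spp1-myc, and at 2 to 6 h between 0 and 2 were occupied in any of these libraries. In SPS, before the transfer, 2, 1, 1 and 3 were occupied in the same order of strains. Over all 347 genes, 23.1% to 37.8% were occupied in these 4 strains at 0 h and 8.07% to 23.6% later. In H3 wild type, 1 and 8 of the 12 were occupied in the 2 libraries at 0 h, and 0 or 1 in each of the 6 later libraries, so that 1 library at 0 h lay within the later range. In H3K4R, 3 to 6 of the 12 were occupied in the 6 later libraries (median 4.5), a range that did not overlap the later range of H3 wild type. In H3R2A the later range was 1 to 5 (median 3). Over all 347 genes and all times, H3K4R had 12.1% to 34.6% occupied (median 19.6%) and H3 wild type 10.7% to 36.9% (median 19.2%). In H3R2A the share was 9.22% to 31.1% (median 12.4%). These shares include the 0 h libraries and are not matched to the later list counts. Over the 3 histone strains together the median was 27.7% at 0 h and 15.4% later. Later H3K4R libraries also had 5 to 10 of 10 amino acid genes occupied, against 3 to 8 in H3 wild type. They had 2 to 5 of 8 chaperone and stress genes, against 3 to 5, and 0 or 1 of 10 meiosis and sporulation genes, against 1 to 5.

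In these later libraries EFB1 had a peak in 6 of 6 in H3K4R and 0 of 6 in H3 wild type, RPL29 in 5 and 0, RPL22B in 4 and 0, RPL2A in 3 and 0, and LOC1, which acts in mRNA localization and ribosome assembly, in 3 and 0. Over all times, which the gene test used, EFB1 had one in 8 of 8 H3K4R and 1 of 8 H3 wild-type libraries, RPL29 in 7 and 1, RPL22B in 6 and 1, RPL2A in 5 and 1, and LOC1 in 5 and 0. None passed over the genome: EFB1 had p = 0.00140 and an adjusted p of 0.225 by Fisher's exact test. Of the 205 short-chromosome genes tested, 0 passed and 11 had an unadjusted p under 0.05. Over the genome 0% of 3382 genes passed and 5.82% had an unadjusted p under 0.05. Genes met less often in H3K4R included SWH1, an oxysterol-binding protein homologue (0 of 8 and 6 of 8), TVS1 (0 of 8 and 5 of 8) and HSP12, a membrane-associated stress protein (3 of 8 and 8 of 8). The median difference in peak frequency was 0 points over these 205 genes and over all genes tested.

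H3R2A gave fewer such genes. Of 189 short-chromosome genes tested, 0 passed and 4 had an unadjusted p under 0.05, with 0% of 3183 passing over the genome and 2.73% under the unadjusted threshold. CDC19, the pyruvate kinase of glycolysis, had a peak in 7 of 8 H3R2A and 2 of 8 H3 wild-type libraries, and EFB1 and RPL29 each in 6 of 8 and 1 of 8. TUB2, beta-tubulin, had one in 3 of 8 and 8 of 8. The median difference was -12.5 points over the 189 genes and over all genes tested. The short to longer ratios themselves did not separate either mutant from H3 wild type. The difference in log2 density ratio was 0.04 for H3K4R and 0.01 for H3R2A, and the adjusted p of all 8 tests of the 2 mutants lay between 0.408 and 0.958 (exact permutation test within times, 8 against 8 libraries).

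**Figure D5:**
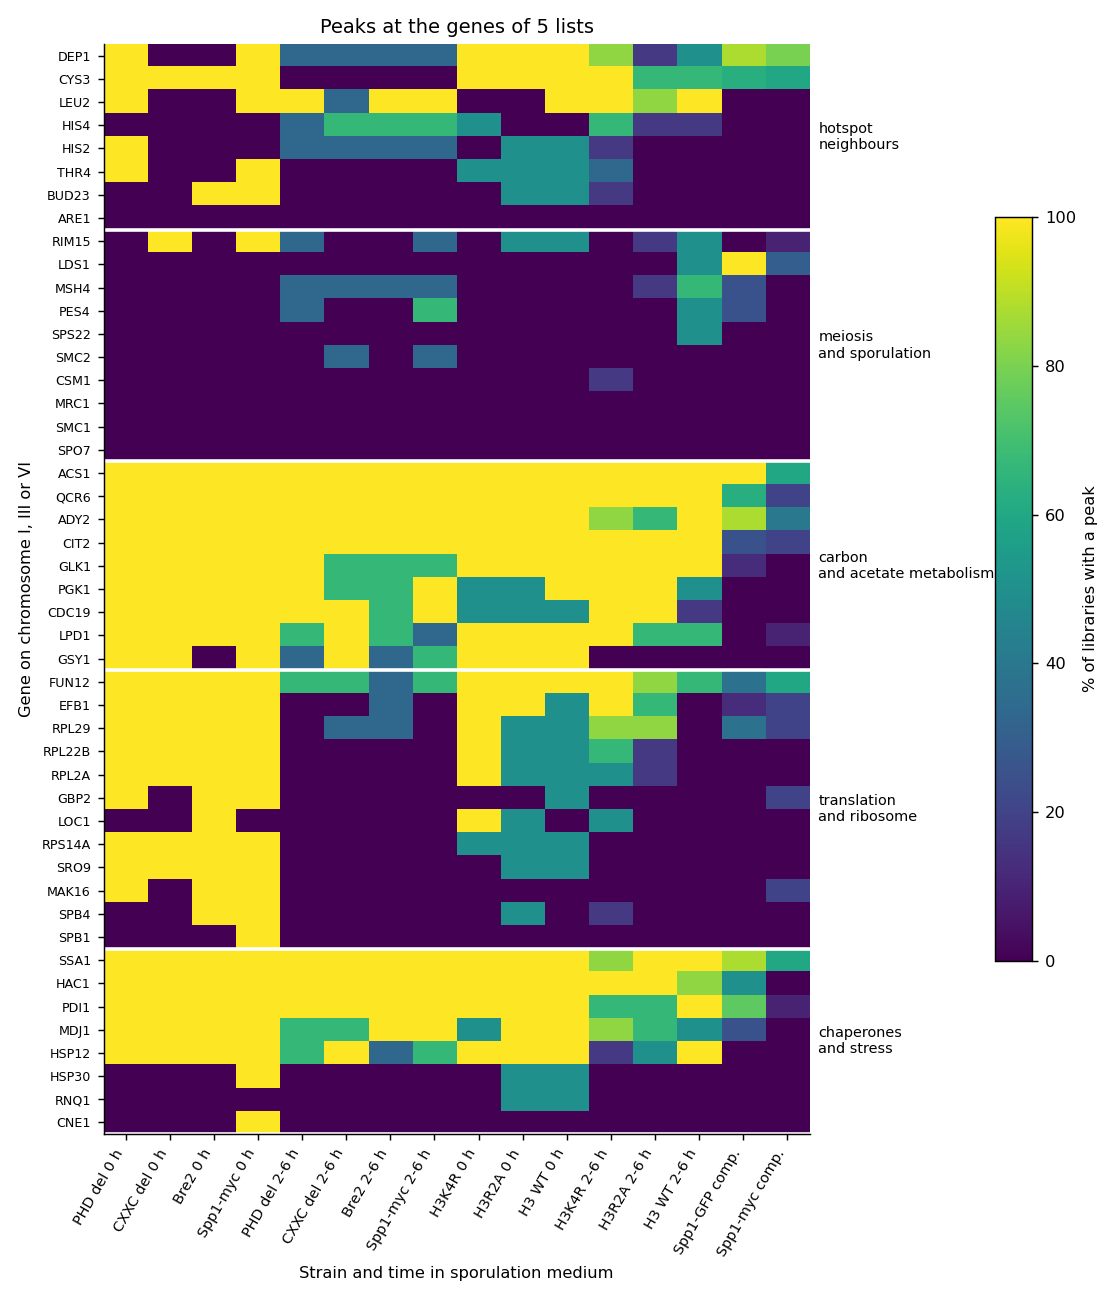
Percent of libraries with a peak at the interior genes of 5 lists on chromosomes I, III and VI, by strain and time in sporulation medium (genes down, most occupied first within a list; 1 library per cell column at 0 h and 3 at 2 to 6 h for the myc-tagged strains, 2 and 6 for the histone strains, 8 and 10 in the competition). Most carbon genes stay occupied outside the competition series, although GSY1 had a peak in 0 of 18 histone strain libraries at 2 to 6 h. In the competition series 1 to 5 of the 9 carbon genes are occupied with Spp1-GFP and 0 to 5 with Spp1-myc. In the myc-tagged strains 7 to 11 of 12 translation genes are occupied at 0 h and 0 to 2 later, with 3 to 6 occupied later in H3K4R. The genes for meiosis and sporulation are occupied in few libraries.

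Time in sporulation medium gave the largest set of gene calls. Over the 3 histone strains, 20 of the 210 short-chromosome genes tested (9.52%) passed Fisher's exact test between the 18 libraries at 2, 4 and 6 h and the 6 at 0 h, beside 7.4% of the 3501 genes tested over the genome. Of the 20, 1 was met more often later and 19 less often, against 0.686% and 6.71% over the genome. They lay on I (4 of 50 tested), III (9 of 82) and VI (7 of 78). The median difference was -16.7 points on the short chromosomes and -16.7 points over all genes tested.

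The gene that gained was MET10, the alpha subunit of sulfite reductase, with a peak in 18 of 18 later libraries and in 1 of 6 at 0 h (adjusted p = 0.00969, Fisher's exact test). It lies on chromosome VI, 213312 to 216419. It also held the widest short-chromosome peaks of the series, 3301 bp at 2 h in 1 H3K4R library (213040 to 216340) and in 1 H3R2A library (213091 to 216391), whereas in other later libraries of the histone strains its peaks were as narrow as 151 bp. Outside the histone strains MET10 had a peak in 1 Spp1-myc, 1 Bre2, 1 PHD-deleted and 1 CXXC-deleted library, all after 0 h. LEU2, which lies next to a meiotic break hotspot and is heterozygous for a leu2 allele here, had a peak in 17 of 18 later libraries and 2 of 6 at 0 h (adjusted p = 0.0758, Fisher's exact test). In H3 wild type it had one in 2 of 2 libraries at 0 h and 6 of 6 later. The difference came from H3K4R (0 of 2 and 6 of 6) and H3R2A (0 of 2 and 5 of 6). At 0 h LEU2 also had a peak in full-length Spp1-myc and in Spp1 without the PHD finger, but not in Bre2 or Spp1 without the CXXC domain.

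GSY1, glycogen synthase, on chromosome VI, had the lowest adjusted p, with a peak in 0 of 18 later libraries and 6 of 6 at 0 h (adjusted p = 0.00289, Fisher's exact test). ERV46, a cargo receptor between the endoplasmic reticulum and the Golgi, on I, and RBK1, ribokinase, and SOL2, a 6-phosphogluconolactonase homologue, on III, each had a peak in 1 of 18 and 6 of 6 (adjusted p = 0.00828 each, Fisher's exact test). The others included PRP45, a splicing factor, AHC2 of the ADA acetyltransferase complex, SGF29 of SAGA, the MICOS subunits MIC10 and MIC19, the mitochondrial thioredoxin TRX3 and RVS161, an amphiphysin homologue. GSY1 did not behave in this way in every strain: after 0 h it was met in 3 of 3 libraries of Spp1 without the CXXC domain and 2 of 3 of full-length Spp1-myc. Fewer libraries left fewer calls, with 8 to 13 short-chromosome genes when 1 replicate of 1 strain was left out, and 7 remained when only peaks scoring at or above the list median were used.

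The short chromosomes as a whole were also compared between the times. They had 9.22% to 34.6% of their genes occupied in the later libraries (median 15.4%) and 22.5% to 36.9% at 0 h (median 27.7%). The longer chromosomes had 7.70% to 33.8% later (median 15.3%) and 20.3% to 33.6% at 0 h (median 24.8%). The short minus longer difference was -0.06 ± 2.06 points later (n = 18) and 2.92 ± 1.24 points at 0 h (n = 6), and it was positive in all 6 libraries at 0 h. The exact permutation test within strains gave p = 0.00419 for that difference of -2.98 points, and an adjusted p of 0.0671 over 16 tests, which did not pass. The density ratio did not separate the times, at 1.04 ± 0.20 later and 1.08 ± 0.05 at 0 h (adjusted p = 0.716, exact permutation test). The lists were shorter later, with a median of 973 interior peaks, against 1484 at 0 h, and had more on chrXVII, with a median of 4.85%, against 2.07% at 0 h, whose part in the difference was not tested.

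Genes next to known recombination hotspots were met unevenly. DEP1 and CYS3, cystathionine gamma-lyase, flank a strong hotspot on chromosome I and had a peak in 39 and 35 libraries. LEU2 on III had one in 35, HIS4, a histidine biosynthesis gene also on III and heterozygous in these strains, in 14, and ARE1, an acyltransferase gene on III, in 0 of 62. The list's median was 11.5 libraries and 3 of its 8 genes reached 31. CYS3 was met at 0 h in all 4 myc-tagged strains and in none of their libraries at 2 to 6 h, and in 6 of 8 H3 wild-type and 8 of 8 H3K4R libraries.

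Of 10 genes that act in meiosis and sporulation, 0 reached 31 libraries (median 2.5) and 3 had a peak in none, beside 11.0% and 24.5% of all 347 genes (median 4). SMC1 of cohesin, SPO7, a nuclear membrane phosphatase subunit, and MRC1, a replication checkpoint protein, had no peak in any of the 62. MSH4, which protects crossover intermediates, had a peak in 0 of 8 H3K4R and 4 of 8 H3 wild-type libraries, and at 6 h in each of the 4 myc-tagged strains. After 0 h, H3 wild type had 1 to 5 of the 10 occupied (median 2.5), while H3K4R and H3R2A had 0 or 1 in each library. Over all 347 genes and all times, the median share occupied was 19.2% in H3 wild type, 19.6% in H3K4R and 12.4% in H3R2A. Those shares include 0 h and are not matched to the later list counts. Over the 3 strains together the median was 27.7% at 0 h and 15.4% later. LDS1, a spore wall assembly gene on chromosome I, had a peak in 8 of 8 Spp1-GFP libraries, in 3 of 10 competition Spp1-myc libraries and in 3 of 8 H3 wild-type libraries, and in none of the 20 libraries of the myc-tagged time courses.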

How the data were processed

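ChIP-seq peak lists of 62 libraries were analysed, and the input and untagged samples were not analysed here. The submitters' processing notes name BWA, deepTools and the build sacCer3. Caller, threshold and control for the peaks are not stated by any source read for this work. Each deposited list gives positions, a width and a score, a fraction from 0.5 to 1 that the authors deposited as called, per library, with no normalization stated. From these, densities, occupied genes, medians of within-list score percentiles and medians of widths were computed with Python 3.11.15, numpy 2.4.6, pandas 2.3.3 and scipy 1.17.1. Chromosome ends were the last annotated or peak-covered position. Genes came from the R64 table (6002 nuclear coding genes). A peak between divergent genes, or in an upstream window that reaches into a neighbouring gene, could count for both. Before log2 ratios, 0.5 peaks were added to each count.

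Strains were tested by two-sided exact sign-flip tests (20 tests), contrasts by two-sided exact permutation within time or strain (16 tests) and genes by Fisher's exact test over the genome, with Benjamini-Hochberg adjustment and a threshold of 0.05. Strains with 1 library per stage were described without tests. On simulated data the gene test recovered 80.5%, 79.0%, 56.0% and 96.5% of 200 changed genes for H3K4R, H3R2A, the tags and time. Each changed gene was set to have a peak in nearly every library of either group and in almost no library of the other. These shares therefore do not give the power for smaller differences. The members, lists and tests were chosen with earlier results of these data known. Genes named were list members, up to 8 per chromosome found in most libraries, up to 4 per direction and contrast, and up to 6 per Spp1-myc time class by score. Genes named beside the competition counts, the wide peaks and the further time calls, and the measure of gene ends, were chosen after their values were seen. The alternatives were other end margins, windows, score and chromosome subsets, peak bases, means, a replicate block and leaving out each library.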

Additional observations from a re-analysis of the deposited data

Results flagged for a closer look

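Among 36 sets of 1 measure in 1 strain, 4 libraries stood apart from the others of their strain by Dixon's test, which flags about 1 set in 20 by chance. Full-length Spp1-myc at 4 h had a short minus longer difference in median score percentile of -8.29 points, against 2.24 to 4.79 points in its other 4 libraries. H3K4R replicate 1 at 0 h had the lowest such difference of its strain, -14.1 points. H3R2A replicate 1 at 2 h had the lowest log2 density ratio of its strain, -0.51, with 37 peaks on the short chromosomes, and the other 7 libraries were above 0. Competition Spp1-myc replicate 2 at 5.5 h had a log2 ratio of median widths of -0.58.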

How the results depend on the processing

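Of 194 alternatives, 157 left direction and call as reported. All calls rest on few libraries, on peak lists without depth and, in the competition series, on lists as short as 26 peaks. The deviations of same-numbered replicates had correlations of -0.11 to 0.24. With a replicate block the time difference in occupied genes passed (-2.98 points, adjusted p = 0.0273, exact permutation test).

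Density log2 ratios without an end margin were -0.016 in H3R2A and -0.066 in H3 wild type. Without chromosome I they were -0.11 in H3K4R, -0.11 in H3R2A, 0.70 in Spp1-GFP and 0.13 in competition Spp1-myc, and the contrasts with H3 wild type were -0.13 for H3K4R and -0.13 for H3R2A. Without chromosome VI they were -0.021, -0.14 and -0.18 in H3K4R, H3R2A and H3 wild type. H3K4R passed by bases under peaks (0.31). It also fell under the threshold without chromosome III (0.38), but leaving out the chromosome found sparsest in these data raises the rest by construction. The time contrast of density was 0.10 with peaks scoring at or above the list median, 0.14 by bases and 0.10 without chromosome III, and the H3R2A contrast was -0.049 with those peaks. Occupied-gene differences in H3 wild type were -0.72 points with a 1000 bp window and -0.74 without a margin. In H3K4R, H3R2A and H3 wild type they were -0.66, -0.62 and -0.58 without chromosome I, -1.40, -1.55 and -2.72 without VI, and 6.45, 5.42 and 4.69 without III. The values without III fell under the threshold, but that too follows from leaving out the sparsest chromosome and is a description only. In the competition they were 1.46 and 0.42 without chromosome I. By mean widths the log2 ratios were 0.23, 0.25 and 0.21 in the histone strains, where they passed, and -0.12 in competition Spp1-myc. With the higher-scoring peaks, 7 short-chromosome genes and 157 in the genome passed between times.

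Leaving out 1 library or replicate gave 1.70 to 2.04 and 6.32 to 7.11 points for Spp1-GFP, -3.29 to -2.58 for the time difference in occupied genes (exact permutation test, adjusted p = 0.0292 to 0.120), and 8 to 13 short-chromosome and 107 to 147 genome calls between times. Signs changed without 1 library for H3R2A score percentile (-1.89 to 0.53), H3 wild-type density (-0.026 to 0.11) and occupied genes (-0.26 to 0.71), competition Spp1-myc width (-0.0045 to 0.12), and the contrasts of H3K4R density (-0.028 to 0.11), H3R2A density (-0.061 to 0.089) and occupied genes (-0.010 to 1.11), and the tags' occupied genes (-0.75 to 0.35). The cause was not tested.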
